A study of Rattus norvegicus with 8 samples.

Results

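The miR-193 and miR-365 microRNAs (miRNAs) were followed across treatments in the rat glioma line C6, which the labels call glioblastoma. Every array entry named rno-miR-193 or rno-miR-365, with any letter and arm, was taken. This gave 4 of the 719 miRNAs on the array, namely rno-miR-365-3p, miR-365-5p, miR-193-3p and miR-193-5p. The group was chosen by measured values, because miR-365-3p was bright and lower on all 6 drug arrays than on both control arrays. Differences between drug and control are therefore given as descriptions, without a test, and tests were made only between drugs. Each day for 5 days the medium was given haloperidol at 2 µg/ml, or risperidone at 4 µg/ml, or clozapine at 25 µg/ml. Control cells stayed untreated. Each of the 4 groups had 2 arrays, described as biological repeats. All groups were the same line in medium with horse and bovine serum, each drug had 1 dose, and the doses differed between drugs. The labels name no vehicle for the controls.

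A miRNA is cut from a hairpin precursor whose arms, named 5p and 3p, can each give a mature strand that binds target transcripts through its seed, bases 2 to 8. Hairpins transcribed together start from a common precursor, and mature strands can then differ in processing and stability. In human and mouse cells miR-193a-3p is known to repress transcripts of the urokinase uPA, the receptor Kit and the survival factor Mcl1. In human cells miR-365 has been reported to repress cyclin D1 and the transcription factor Nkx2-1. In mouse, the related miR-193b and miR-365 cluster has been studied in brown adipocyte formation. Haloperidol, a first-generation antipsychotic, and risperidone and clozapine, of the second generation, all act on dopamine and other monoamine receptors.

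The mature sequences are shown because they separate the arms and mark what the probes had to tell apart. They come from RefSeq (build GRCr8), with the seed in capitals, and all 4 members matched. The array's miR-193 corresponds to RefSeq miR-193a.
miR-365-3p: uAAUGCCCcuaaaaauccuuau
miR-365-5p: gAGGGACUuucaggggc
miR-193-3p: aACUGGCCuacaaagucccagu
miR-193-5p: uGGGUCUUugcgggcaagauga
miR-193b-3p: aACUGGCCcacaaaguccc
miR-3549: aUCUUGCCcgcaaagaccc

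The 4 members have 4 different seeds. Of the 724 mature rat sequences in the table, 1 other shares a seed with a member: miR-193b-3p, which has the seed of miR-193-3p and is not among the array's names. Over the 19 bases of miR-193b-3p, the pair differs at 1 base, U9C, counted from 1 at the 5′ end with the base of miR-193-3p first. Probe sequences were not used here, so whether the miR-193-3p probes also bind miR-193b-3p was not tested. By G+C content, miR-365-3p (31.8%) is poorer than miR-193-3p (50%) and miR-193-5p (54.5%).

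Both member hairpins lie on the plus strand of chromosome 10 in GRCr8, and they are shown with their mature arms in capitals so that both arms of each can be seen together.
Mir193, chr10:65170317-65170402: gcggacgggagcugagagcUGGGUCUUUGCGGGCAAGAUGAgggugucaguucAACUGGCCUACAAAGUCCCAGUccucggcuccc
Mir365b, chr10:65184217-65184302: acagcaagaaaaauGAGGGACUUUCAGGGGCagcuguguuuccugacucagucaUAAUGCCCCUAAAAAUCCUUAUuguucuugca

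In these hairpins miR-193-5p is at chr10:65170336-65170357, miR-193-3p at chr10:65170370-65170391, miR-365-5p at chr10:65184231-65184247 and miR-365-3p at chr10:65184271-65184292. The hairpins are 13814 bases apart, and both fall inside the RefSeq gene model Faul2, between Rab11fip4 and Utp6. Within 10000 bases of a member hairpin the table holds 1 further mature miRNA, miR-3549, at chr10:65170337-65170355 on the minus strand. The reverse complement of its 19 bases is contained in miR-193-5p. It was detected on 0 of 8 arrays. The Mir193b hairpin lies elsewhere on chromosome 10, between Mrtfb and Parn.

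A level here is the log2 of a miRNA's background-subtracted signal, summed over its probes and divided by the array's 75th percentile, so 0 is that percentile. Across arrays the percentile ran from 383 intensity units in risperidone 2 to 1479 in haloperidol 1, and 20.3% to 27.9% of spots were well above background. Risperidone 2 had the lowest such share. No spot was saturated. The 8 arrays shared 1 slide, the replicate number was the slide row, and the slide column held 1 treatment each, so column and treatment cannot be told apart. All 6 astroglia and glioma marker miRNAs, miR-21-5p and miR-125b-5p among them, were detected on all 8 arrays. Of 5 neuron markers, miR-9a-5p and miR-128-3p were detected while miR-124-3p, miR-137-3p and miR-138-5p were detected on 0 arrays, as were all 5 epithelial markers.

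Of the members, miR-365-3p and miR-193-3p had 160 of 160 spots well above background over the 8 arrays. The 5p strand, miR-193-5p, had 65 of 160. The other arm of the miR-365 hairpin, miR-365-5p, had 0 of 160 and summed signals between -12.2 and -4.45 intensity units, so it has no measured level. It did not enter the tests, which took the 243 miRNAs that at least 1 group had detected on all its arrays. The remaining 3 members were detected on all 8 arrays.

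miR-365-3p was lower on every drug array than on either control array. The level of rno-miR-365-3p on the haloperidol arrays was 0.20 and 0.24, on the risperidone arrays 0.16 and 0.00083, and on the clozapine arrays 0.31 and 0.23, against 0.81 and 0.49 in the controls. The highest drug array, clozapine 1, thus lay below the lower control array. Means were 0.22 ± 0.03 with haloperidol, 0.08 ± 0.11 with risperidone and 0.27 ± 0.06 with clozapine, against 0.65 ± 0.22 in controls (SD, n = 2 each). The differences from control were -0.43, -0.57 and -0.39 on the log2 scale for haloperidol, risperidone and clozapine (SE 0.16 each), that is 1.35-fold, 1.49-fold and 1.31-fold lower. In bulk RNA, fewer cells carrying a miRNA and less of it per cell cannot be told apart.

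This separation chose the miRNA, and it is not rare on these arrays. All 6 drug arrays lay below both control arrays for 49 of the 243 tested miRNAs (20.2%) and above both for 4 (1.65%). Among the 185 miRNAs detected on all 8 arrays, 35 (18.9%) lay below both. Differences between drug and control also had a median below 0 over all tested miRNAs: -0.15 for haloperidol, -0.15 for risperidone and -0.17 for clozapine. Relative to that median, miR-365-3p differed by -0.28, -0.42 and -0.21. For single drugs, 32.9% of tested miRNAs under haloperidol, 32.9% under risperidone and 34.2% under clozapine were lower than control without overlap. Counted from the lowest difference, it ranked 38, 31 and 79 among 243.

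**Figure D1:**
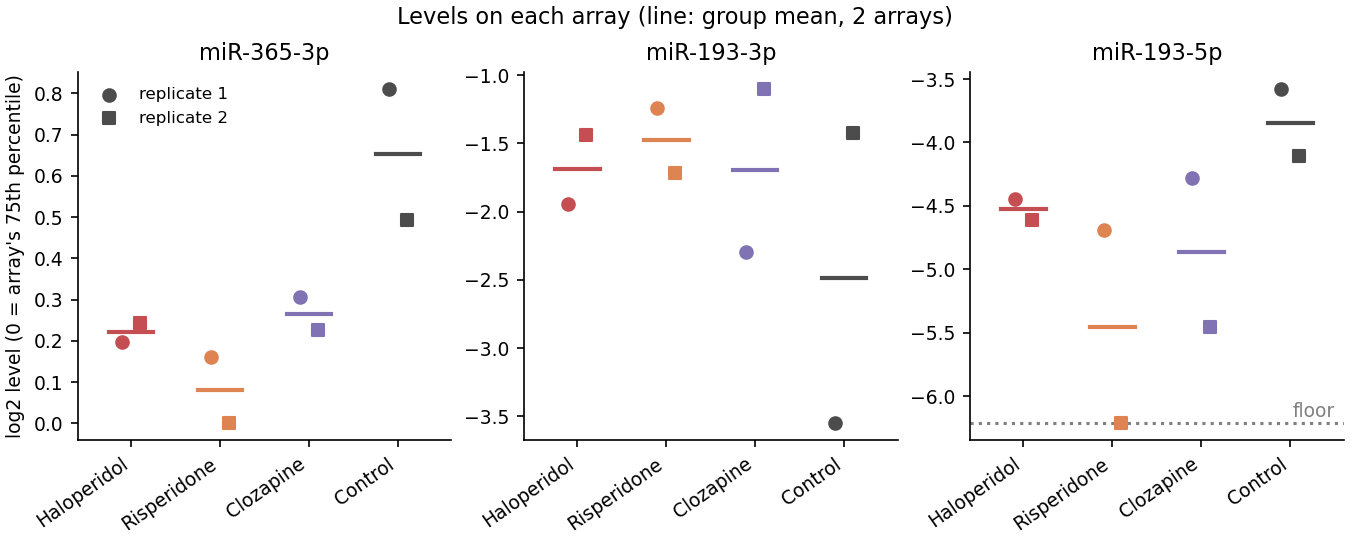
Log2 level of the 3 detected members on each array, by group from haloperidol, risperidone and clozapine to control; a circle is replicate 1, a square replicate 2, the line the mean of the 2 and the dotted line the floor. For miR-365-3p the 6 drug arrays lie between 0.00083 and 0.31 and the controls at 0.81 and 0.49, while the control arrays of miR-193-3p are 2.13 apart.

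The size of the miR-365-3p difference rested in part on control 1. Against control 2 alone it was -0.27 for haloperidol, -0.41 for risperidone and -0.23 for clozapine, where the median miRNA differed by -0.11, -0.13 and -0.18. Relative to the median, the clozapine difference was then -0.05. Within slide row 1 the differences were -0.61, -0.65 and -0.51, and within row 2 they were -0.25, -0.49 and -0.27, in the order haloperidol, risperidone, clozapine. The median miRNA differed by -0.16, -0.08 and -0.13 in row 1 and by -0.15, -0.26 and -0.25 in row 2.

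Scaling also bore on the sign. Before scaling, the miR-365-3p signal was 1697 and 1131 intensity units on the haloperidol arrays, 1220 and 384 on the risperidone arrays, and 980 and 802 on the clozapine arrays, against 1821 and 1335 in controls. Haloperidol 1 was thus above control 2. With the percentile taken over all probes, 2 of 6 drug arrays lay below both controls and 2 above both, and the risperidone and clozapine differences were 0.02 and 0.26. Under that scaling the median miRNA also moved up, to 0.35 and 0.42. Its percentile took in all 1730 probes, though only 20.3% to 27.9% of spots per array were well above background. The SE of the miR-365-3p differences was then 0.49, against 0.16 in the main setting. All 6 drug arrays lay below both controls for 2.06% of tested miRNAs under that scaling and for 2.06% with none. The share was 10.3% with quantile normalization, 9.05% with cyclic loess, 4.53% with normexp, 23% with the deposited gene-level signal and 18.9% with the brightest probe. miR-365-3p was below both controls on all 6 under each of these last 5, and on 5 without scaling. In all 6 scaling and background settings miR-365-3p lay below the median miRNA for each drug. It was chosen for its lower level on these same arrays, so this is a description. How many other miRNAs do the same was not counted. With normexp the median stood at 0.38 for risperidone and 0.76 for clozapine, where miR-365-3p differed from control by -0.47 and -0.27. Normexp added an offset of 50 units to each spot, a larger part of the signal of dim miRNAs than of bright ones. That setting thus does not treat the bright miR-365-3p and dimmer miRNAs alike, and the part of the offset was not tested.

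**Figure D2:**
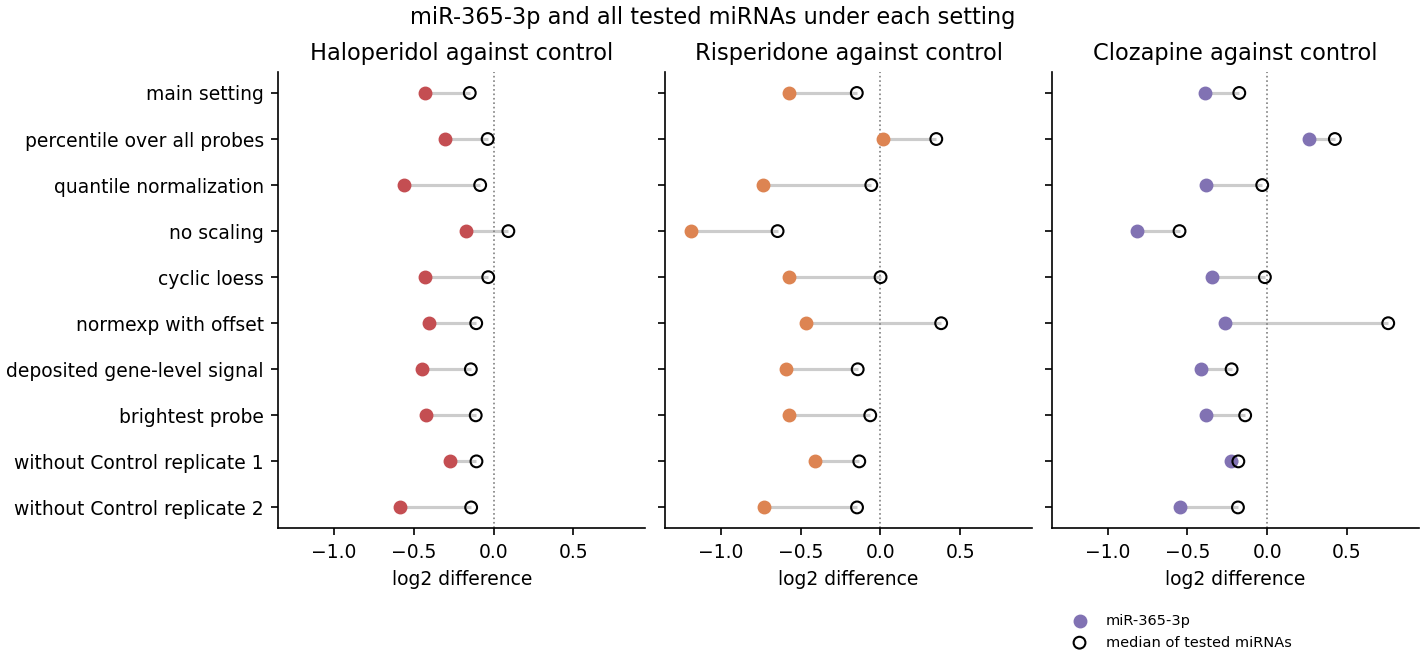
Log2 difference of miR-365-3p from control (filled points) and the median over the tested miRNAs (open points) for haloperidol, risperidone and clozapine, under each processing setting and without either control array. The filled point lies left of the open point in every row shown, and the risperidone and clozapine points pass 0 when the percentile is taken over all probes.

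Both miR-365-3p probes gave the same picture. The differences from control were -0.43, -0.57 and -0.38 on the brighter probe and -0.44, -0.57 and -0.40 on the dimmer, for haloperidol, risperidone and clozapine. The ratio between the probes stayed between 2.62 and 2.72 on the 8 arrays, and repeated spots of a probe had a coefficient of variation of 1.21% to 3.7%. These probes share the miRNA and the RNA sample, so they are no replicates of a treatment.

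**Figure D3:**
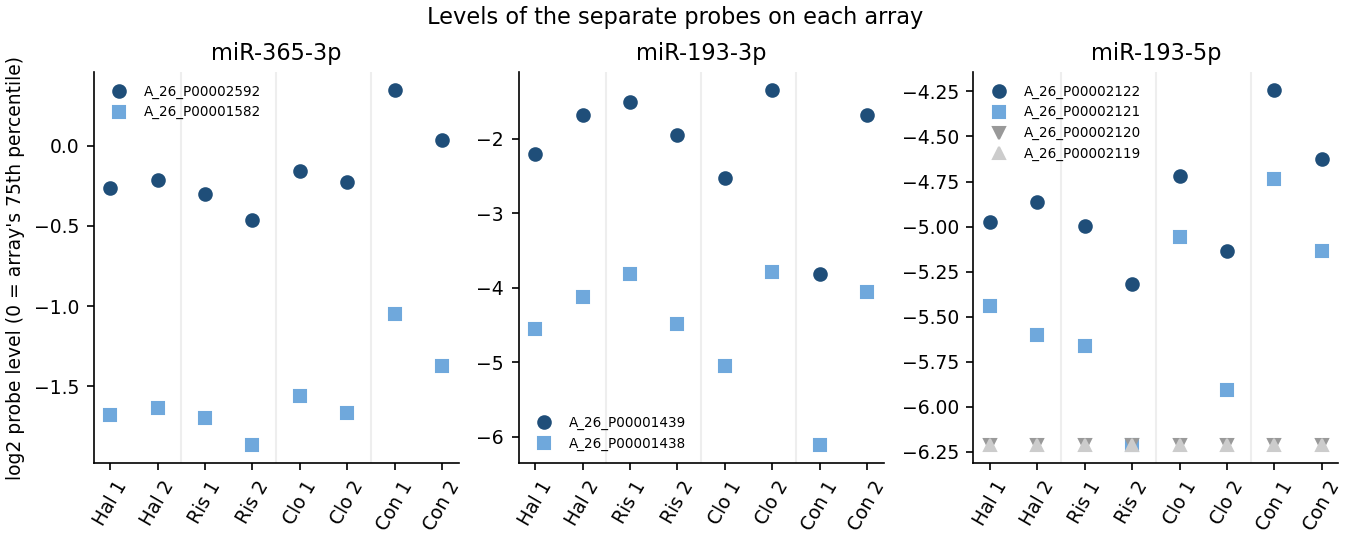
Scaled log2 signal of each probe of miR-365-3p, miR-193-3p and miR-193-5p (vertical axis, 0 is the array's 75th percentile) on each array, from haloperidol (Hal), risperidone (Ris) and clozapine (Clo) to control (Con), numbered by replicate. The miR-365-3p probes keep nearly the same distance on every array, with a ratio of 2.62 to 2.72, and 2 of the 4 miR-193-5p probes sit at the floor of -6.21 throughout.

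No difference in miR-365-3p between drugs passed the test. Risperidone differed from haloperidol by -0.14, with a 95% interval of -0.53 to 0.25, and their arrays did not overlap. Clozapine differed from haloperidol by 0.04 (-0.34 to 0.43), with overlapping arrays. Clozapine differed from risperidone by 0.18 (-0.21 to 0.57), without overlap. The adjusted limma p was 1 in all 3. Arrays of 9.88% of tested miRNAs were lower without overlap in risperidone than in haloperidol, and 5.76% were higher in clozapine than in risperidone. Each interval reaches past 0.39 in 1 direction, the size of the clozapine difference of -0.39 from control. At the adjusted threshold of 0.05 limma called 0 of 243 miRNAs (0%) in each of the 3 drug comparisons, and 0, 3 and 4 had an unadjusted p under 0.05. With 2 arrays a side, the smallest p that an exact permutation test allows is 0.333.

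The 3p strand of the neighbouring hairpin, miR-193-3p, stood higher on average in each drug group, but its arrays overlapped those of the controls. Its level on the haloperidol arrays was -1.94 and -1.44, on the risperidone arrays -1.24 and -1.72, and on the clozapine arrays -2.30 and -1.10, against -3.55 and -1.42 in the controls. Control 1 was the lowest of all 8 arrays, while control 2 lay within the drug range. Means were -1.69 ± 0.35, -1.48 ± 0.34 and -1.70 ± 0.84 with haloperidol, risperidone and clozapine, against -2.49 ± 1.5 in controls (SD, n = 2 each). The differences from control were 0.80, 1.01 and 0.79 (SE 0.78 each).

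These differences hung on control 1. Against control 2 alone they were -0.27, -0.05 and -0.28 for haloperidol, risperidone and clozapine, and against control 1 alone 1.86, 2.07 and 1.85. The control arrays were 2.13 apart, a 4.37-fold gap, and 0 of 243 tested miRNAs had a larger gap between controls (median 0.43). Within row 1 the drug differences were 1.61, 2.31 and 1.25, and within row 2 they were -0.02, -0.29 and 0.32. The miR-193-3p signal of control 1 before scaling was 88.7 intensity units and that of control 2 was 354.

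Both miR-193-3p probes showed the gap between controls 1 and 2, at -3.82 and -1.68 on the brighter probe and -6.11 and -4.05 on the dimmer. The drug differences from control were 0.80, 1.02 and 0.81 on the brighter probe and 0.75, 0.93 and 0.66 on the dimmer. The ratio between these probes ran from 4.89 to 5.80. On clozapine 1 the scanner software marked 5 of 20 spots of this miRNA as outliers, which were left out. Between drugs, miR-193-3p differed by 0.21 for risperidone against haloperidol (95% interval -1.74 to 2.17), by -0.01 for clozapine against haloperidol (-1.96 to 1.95) and by -0.22 for clozapine against risperidone (-2.17 to 1.73). The adjusted limma p was 1 in all 3.

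The other arm of that hairpin, miR-193-5p, was dim and lower on all 6 drug arrays than on both controls, as 20.2% of tested miRNAs were. Its level on the haloperidol arrays was -4.44 and -4.61, on the risperidone arrays -4.69 and -6.21, and on the clozapine arrays -4.28 and -5.46, against -3.58 and -4.11 in the controls. The value of risperidone 2 is the floor, where 0 of 20 spots were well above background, and clozapine 2 had 5 of 20. Group means were -4.53 ± 0.12, -5.45 ± 1.08 and -4.87 ± 0.83 with haloperidol, risperidone and clozapine, against -3.84 ± 0.37 in controls (SD, n = 2 each).

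The differences of miR-193-5p from control were -0.68, -1.61 and -1.02 (SE 0.62 each). The risperidone difference was the lowest of the 243 and includes the array at the floor. Without risperidone 2 it was -0.85, without risperidone 1 it was -2.37, and with a lower floor it was -2.45. The clozapine difference was -0.43 without clozapine 2 and -1.61 without clozapine 1, and the haloperidol difference was -0.42 without control 1. Its probes were uneven: 2 of 4 were not above background on any array. Their signals were negative on every array and still entered the sum. On risperidone 2 they were -9.07 and -6.66 intensity units, beside 9.60 and 2.16 on the other probes. The brightest probe alone stood at -5.32 there, above the floor. The brightest gave -0.49, -0.73 and -0.50, and the next -0.59, -1.0 and -0.55, all smaller in size than the summed differences. On the next probe the clozapine arrays overlapped the controls, with clozapine 1 at -5.06 and control 2 at -5.14. With the percentile over all probes, quantile normalization, cyclic loess or no scaling, 5 of 6 drug arrays lay below both controls, and with normexp background correction 3 did. With normexp the risperidone and clozapine differences turned to 0.34 and 0.95, where the median miRNA stood at 0.38 and 0.76. That setting added an offset of 50 units to each spot, while the summed miR-193-5p signal otherwise ran from -3.97 to 86.9 units. The part of the offset in this turn was not tested.

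Between drugs, miR-193-5p differed by -0.93 for risperidone against haloperidol (95% interval -2.48 to 0.63), by -0.34 for clozapine against haloperidol (-1.89 to 1.21) and by 0.58 for clozapine against risperidone (-0.97 to 2.14). The adjusted limma p was 1 in all 3. The first of these rested on the array at the floor: it was -0.17 without risperidone 2, -1.69 without risperidone 1 and -1.77 with a lower floor. The order of group means from the lowest was risperidone, clozapine, haloperidol and control for miR-193-5p. For miR-365-3p it was risperidone, haloperidol, clozapine and control. For miR-193-3p it was control, clozapine, haloperidol and risperidone. No pair of neighbouring drug groups in these orders differed at the adjusted threshold.

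The arms of the miR-193 hairpin thus had opposite signs against control, 3p above 0 and 5p below 0 for each drug. Over the 50 hairpins with both arms tested, 10 (20%) had arms of opposite sign under all 3 drugs, and 2 (4%) had 3p above 0 with 5p below 0. The smallest distance between the arms over the 3 drugs was 1.48 for miR-193, and 1 hairpin, miR-338, had a larger one. Without control 1 the 3p differences were below 0 and the opposition was gone.

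Across the 8 arrays, miR-193-5p and miR-365-3p had r = 0.82, and 0.81 over the 6 drug arrays. The drug-array value rested on risperidone 2, where miR-193-5p is at the floor and miR-365-3p is lowest: without it r was 0.28 over the other 5 drug arrays and 0.79 over the 7 remaining arrays. miR-193-3p ran against miR-365-3p (r = -0.72), but over the 6 drug arrays r was -0.19 and without control 1 it was 0.02. These are descriptions over arrays that share 1 slide and the scaling factor of each array.

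**Figure D4:**
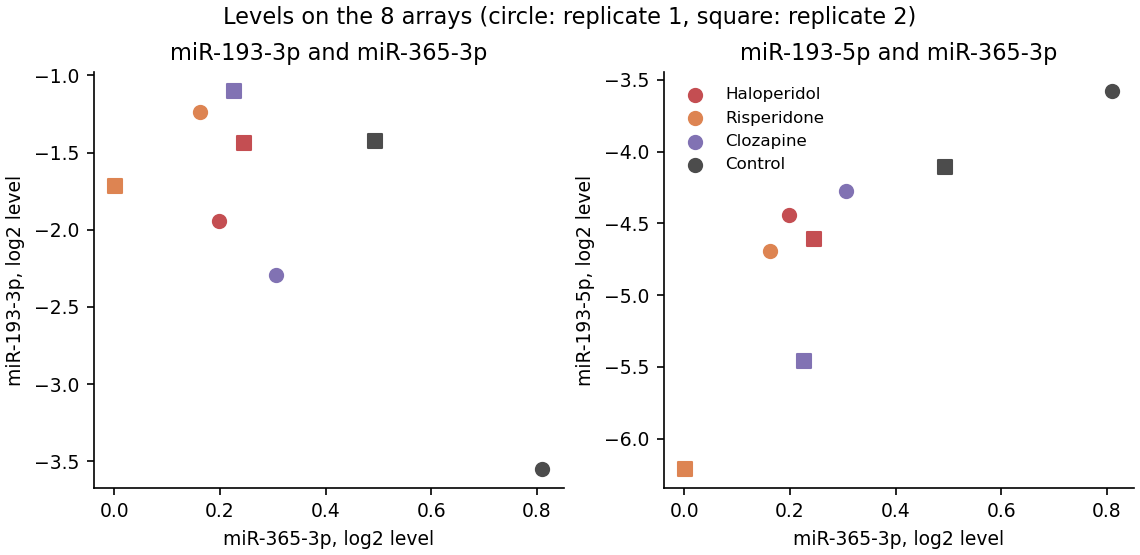
Log2 level of miR-365-3p (horizontal) and those of miR-193-3p and miR-193-5p (vertical) on the 8 arrays, coloured by group, with a circle for replicate 1 and a square for replicate 2. For miR-193-5p r is 0.82, with risperidone 2 at the floor of -6.21, and for miR-193-3p the control 1 array lies alone at -3.55.

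The miRNAs whose levels followed miR-365-3p most closely over the 8 arrays were miR-15b-5p (r = 0.98), miR-98-5p (r = 0.96), miR-25-3p (r = 0.94), miR-146b-5p (r = 0.93) and miR-128-3p (r = 0.93). They came from 182 other miRNAs detected on all arrays, with a median r of 0.20 and 9 above 0.9. Over the 6 drug arrays, which leave out the controls, the arrays farthest from the median, r was 0.97, 0.63, 0.34, 0.84 and 0.62 in the same order. All 5 were lower on all 6 drug arrays than on both controls, as was miR-365-3p, which the correlation used, and as were 18.9% of the miRNAs detected on all arrays. For miR-15b-5p the differences from control were -0.25, -0.35 and -0.17, and for miR-25-3p -0.38, -0.41 and -0.39. The most opposite were miR-290 (r = -0.96, and -0.76 over the drug arrays) and miR-487b-3p (r = -0.95, and -0.92). miR-290 lay above control by 1.41, 1.78 and 0.99 for haloperidol, risperidone and clozapine.

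Lists of miRNAs linked to the known roles of miR-193 and miR-365 were described beside them. Of 12 miRNAs reported to target cyclin D1, as miR-365 has been in human cells, 11 were tested. Of these, 4, 4 and 5 lay below 0 and 7, 7 and 6 above 0 for haloperidol, risperidone and clozapine. Their median differences were 0.25, 0.17 and 0.06, where all tested miRNAs had -0.15, -0.15 and -0.17. The brightest was let-7b-5p, at -0.34, -0.18 and -0.38, followed by miR-16-5p at -0.17, -0.29 and -0.17. miR-20a-5p of the growth-linked miR-17 cluster stood at 0.25, 0.17 and 0.18. Against control 2 alone the list medians were -0.02, -0.09 and -0.09, miR-20a-5p stood at -0.11, -0.20 and -0.18, and let-7b-5p at -0.06, 0.10 and -0.09.

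Of 6 miRNAs reported to target uPA, Kit, Mcl1 or Nkx2-1, all were tested, and 3 lay below 0 and 3 above under each drug. The medians were 0.46, 0.37 and 0.43, and 0.15, 0.07 and 0.05 against control 2 alone. miR-221-3p, known to repress Kit, lay at -0.35, -0.36 and -0.26, with arrays at 2.90 ± 0.01, 2.89 ± 0.01 and 2.99 ± 0.01 under haloperidol, risperidone and clozapine, against 3.25 ± 0.04 in controls (SD, n = 2 each). miR-29b-3p, known to repress Mcl1, lay at 1.11, 1.13 and 0.89, where the control SD was 1.23, and at 0.24, 0.26 and 0.014 against control 2 alone. miR-23b-3p, known to repress uPA, lay at -0.20, -0.26 and -0.03 (0.05, -0.0060 and 0.22 against control 2 alone), and miR-222-3p, which shares the seed of miR-221-3p, at -0.42, -0.26 and -0.30.

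Of 14 brown adipocyte miRNA names, 6 were tested, with 3 below 0 and 3 above under each drug and medians of -0.05, -0.01 and -0.02. The brightest were miR-30b-5p at 0.08, 0.04 and 0.18 and miR-30c-5p at -0.18, -0.24 and -0.05. Of 10 names that restrain brown adipocyte formation, 6 were tested, with 2 below 0 and 4 above under each drug. Their medians were 0.26, 0.17 and 0.10, and -0.01, -0.04 and -0.15 against control 2 alone. The brightest, miR-27a-3p, lay at 0.46, 0.48 and 0.51, where the control SD was 0.66, and against control 2 alone at -0.0089, 0.016 and 0.043. miR-27b-3p lay at 0.06, 0.02 and 0.15. No member of any list was called between drugs.

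The marker lists were mixed. Summed levels of the astroglia, neuron, microglia and endothelium lists overlapped the controls under each drug. For the microglia and leukocyte list they ran from -1.39 to -0.95 with haloperidol and -1.52 to -1.06 with risperidone. With clozapine they ran from -1.43 to -0.84, against -1.48 to -0.58 in controls. The summed level of the mesenchyme list (4 of 5 detected, miR-145-5p on 0 arrays) ran from 0.86 to 1.11 with haloperidol, 0.90 to 1.11 with risperidone and 0.91 to 1.08 with clozapine, against 1.14 to 1.43 in controls. The mesenchyme sum is mostly miR-199a-3p, which differed from control by -0.30, -0.27 and -0.28. Much dimmer were miR-199a-5p, miR-143-3p and miR-214-3p (mean levels -5.05, -5.47 and -5.53). Of these, miR-199a-5p differed from control by 0.02, 0.05 and -0.36, and from control 2 alone by -0.72, -0.70 and -1.10. Both miR-143-3p and miR-214-3p lay below control under each drug. The oligodendrocyte list (2 of 3 on the array detected, miR-219-2-3p on 0 arrays) ran from 0.03 to 0.44, -0.09 to 0.68 and 0.21 to 0.30, against -1.15 to -0.34 in controls. That sum is mostly miR-338-3p (mean level -0.12), which differed from control by 1.02, 1.09 and 1.08. Against control 2 alone miR-338-3p stood at 0.63, 0.70 and 0.69. The dimmer miR-219-5p (mean level -3.94) differed by 0.82, 0.59 and 0.10, and from control 2 alone by 0.15, -0.08 and -0.57. The skeletal muscle list had 1 of 3 on the array detected, miR-206-3p, on 5 of 8 arrays, with miR-1-3p and miR-133a-3p on 0 arrays. Its summed level ran from -4.63 to -3.85 with haloperidol, -4.63 to -4.28 with risperidone and -4.63 to -4.01 with clozapine, against -4.05 to -3.28 in controls, so haloperidol and clozapine overlapped the controls. miR-206-3p differed from control by -1.08, -1.47 and -1.21, and from control 2 alone by -0.49, -0.88 and -0.62. In each drug group the low end of -4.63 is the sum with all 3 miRNAs at the floor. Only the controls had both arrays above it, so these differences depend on the floor. The part of these markers in the miR-365-3p and miR-193 differences was not tested.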

How the data were processed

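The deposited values are Cy3 array intensities from 100 ng of total RNA per array, linear and unscaled, and flags of the unit other (0 or 1), made with Agilent Feature Extraction 10.7.3.1, per the file headers. The deposited gene-level intensity holds 0.1 where a miRNA was not detected. Background-subtracted spot signals, without outlier spots, were averaged per probe, summed per miRNA, divided by each array's 75th percentile over 292 probes above background on all arrays, raised to a floor where below it (the 5th percentile of detected miRNAs, -6.21 as log2) and taken to log2. All 8 arrays were fitted with limma 3.58.1 in R 4.3.3 (4 residual and 5.42 total degrees of freedom) over 243 miRNAs, leaving out 476. P-values were two-sided and adjusted by Benjamini and Hochberg. The fit was tested on simulated data with independent errors, for the direction of calls and the mean error of the differences. How many true differences it finds with 2 arrays per group is not given here. With 2 arrays per group, their number limits the precision.

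The members and lists were chosen with earlier results of these data known. Named miRNAs are the members, the 5 most and 2 least correlated with miR-365-3p, and the brightest members of each list, at most 4. Marker lists covered astroglia, neuron, oligodendrocyte, microglia, erythrocyte, endothelium, mesenchyme, muscle and epithelium. Alternatives changed scaling, background correction, probe summary, floor, replicate block and each array left out.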

Additional observations from a re-analysis of the deposited data

How the results depend on the processing

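Taking the percentile over all probes turned miR-365-3p to 0.016 (risperidone against control), 0.26 (clozapine against control) and 0.32 (risperidone against haloperidol), miR-193-3p to 0.52 and miR-193-5p to 0.18 (both clozapine against haloperidol). Quantile normalization moved miR-365-3p to -0.56 and -0.74 for haloperidol and risperidone against control, and miR-193-5p to 0.17 for clozapine against haloperidol. Without scaling miR-365-3p stood at -0.17, -1.19 and -0.81 for haloperidol, risperidone and clozapine against control with -1.02 for risperidone and -0.64 for clozapine against haloperidol, and miR-193-3p at -0.66 for risperidone against haloperidol. Normexp turned miR-193-5p to 0.34 and 0.95 for risperidone and clozapine against control and to 0.64 and 1.24 for risperidone and clozapine against haloperidol, and miR-193-3p to 0.60 (clozapine against haloperidol) and 0.18 (the same drug set against risperidone). The brightest probe gave 0.0067 and cyclic loess 0.010 for miR-193-3p, clozapine against haloperidol. A lower floor moved miR-193-5p to -2.45 for risperidone against control. The median tested miRNA also moved under some settings. With the percentile over all probes it stood at 0.35 and 0.42 for risperidone and clozapine against control, and at 0.37 and 0.41 against haloperidol. Without scaling it stood at 0.09, -0.64 and -0.55 for haloperidol, risperidone and clozapine against control. Against haloperidol it was then -0.86 for risperidone and -0.76 for clozapine. With normexp it stood at 0.45 and 0.79 for these drugs against haloperidol. The cause was not tested.

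With 1 array left out, miR-365-3p against control ranged over -0.59 to -0.27 (haloperidol), -0.73 to -0.41 (risperidone) and -0.54 to -0.23 (clozapine). For the same drugs miR-193-3p ran from -0.27 to 1.86, -0.055 to 2.07 and -0.28 to 1.85. Between drugs it ran from -0.037 to 0.46 (risperidone against haloperidol), -0.60 to 0.59 (clozapine against haloperidol) and -0.82 to 0.38 (clozapine against risperidone). Against control miR-193-5p ran from -0.95 to -0.42, -2.37 to -0.85 and -1.61 to -0.43, and between drugs from -1.69 to -0.17 (risperidone against haloperidol), -0.93 to 0.25 (clozapine against haloperidol) and -0.18 to 1.35 (clozapine against risperidone).

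The replicate number was also the slide row. Deviations of same-numbered arrays correlated at 0.16 to 0.71 over the 6 pairs of groups, but with 2 numbers per group this does not establish pairing. With 1 array per replicate number in each group, the replicate block cannot change a difference, only its SE and p. For miR-365-3p in risperidone against haloperidol, at -0.14, the adjusted limma p with the block was 0.884. limma called 0 miRNAs between drugs with the block, in all 13 settings and in all 8 fits with 1 array left out (smallest adjusted p 0.117). For lists and their members, leaving out control 1, and for the correlation of miR-193-5p, leaving out risperidone 2, was chosen after seeing the data. Signal over background limits miR-193-5p, with 65 of 160 spots well above background.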
